A study of Mus musculus with 2 samples.

Results

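Nuclear receptors other than the PPAR and RXR groups were measured in skeletal muscle of wild-type mice and of mice null for Jhdm2a. The members were 33 named genes of the nuclear receptor superfamily, each represented by the probe sets that carry exactly 1 gene symbol. Of these genes 32 had such a probe set, 94 probe sets in all, among 34945 probe sets and 18193 genes with 1 symbol on the array. Nr1h2, the ubiquitous liver X receptor, was the gene without one and was not analysed here. Total RNA was hybridised to 2 Affymetrix 430 2 mouse arrays, 1 per genotype. The RNA on an array was a pool from 3 males, and the animals were 3 months old. Both genotypes share the same background, derived from 129 embryonic stem cells and crossed for 4 generations to C57BL/6. The labels name neither the muscle that was taken nor the part of Jhdm2a that was disrupted.

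Jhdm2a, called Kdm3a in current annotation, is a histone demethylase that takes repressive methyl marks off chromatin, and it is known as a cofactor of the androgen receptor. Its 1 probe set read 406 in the wild-type pool and 487.5 in the null pool, a log2 ratio of 0.26. This transcript was therefore not lower in the RNA labelled null, and where the probe set lies relative to the disruption is unknown, so the value neither bears out nor contradicts the labels. Below, the pools are called wild-type-labelled and null-labelled, and every direction rests on that labelling. With 1 pooled array per genotype there is no replicate and no test, so "higher" and "lower" describe these 2 arrays only, whose number limits the precision.

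Nuclear receptors are transcription factors with a zinc finger DNA-binding domain and a ligand-binding domain. Some bind hormones, vitamins or lipids, others are orphans that act without a known physiological ligand, and many of the lipid-sensing members bind DNA as partners of RXR. In skeletal muscle they are known for control of fuel use, contractile phenotype, protein breakdown under glucocorticoids and the daily clock.

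A probe set was counted as measured when its MAS5 signal exceeded 182 on both arrays, the 60th percentile of all signals. By this rule 21 receptor genes were measured, 65.6% of the 32, against 53.3% of all genes. Most measured receptor transcripts differed by less than 1.5-fold, as did most measured genes. Of the 21, 19 lay within 1.5-fold and 2 outside it, where 8753 of all 9696 measured genes lay within and 9.73% outside. The median log2 ratio, null-labelled over wild-type-labelled, was 0.05 against 0.04 for all measured genes. One receptor gene, Nr1h3, was at least 1.5-fold lower, as were 6.34% of all measured genes. One, Nr3c2, was at least 1.5-fold higher, as were 3.38% of all measured genes. No receptor gene reached 2-fold, a size reached by 2.74% of all measured genes. The signs were mixed, with 11 receptor genes above 0 and 10 below, and 55.7% of all measured genes lay above 0. The SD of the log2 ratio over the 21 receptor genes was 0.43, against 0.46 over all measured genes. The latter run from -5.71 to 2.63, so these SDs do not compare the bulk of the genes. Several receptor genes stood far out in the ranking of all measured genes, such as Nr1d1 at the 6.94, Rarg at the 8.19 and Rarb at the 93.3 percentile. Others stood inside it, such as Hnf4a at 34.8 and Esrrb at 51.7.

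**Figure D1:**
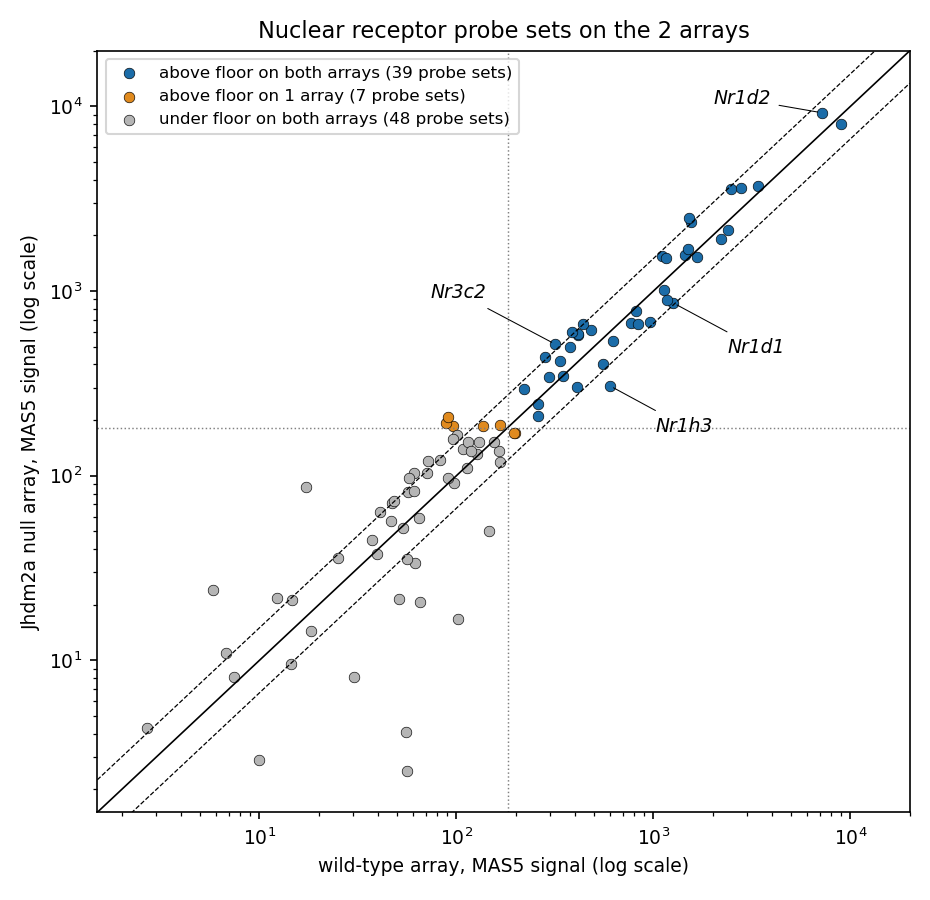
MAS5 signal of the 94 receptor probe sets for the wild-type pool (horizontal, log scale) and the Jhdm2a null pool (vertical, log scale), with the line of equal signal solid, 1.5-fold dashed and the floor of 182 dotted. The 39 probe sets above the floor on both arrays lie close to the line of equal signal, while several of the 48 under the floor on both scatter further from it.

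**Figure D2:**
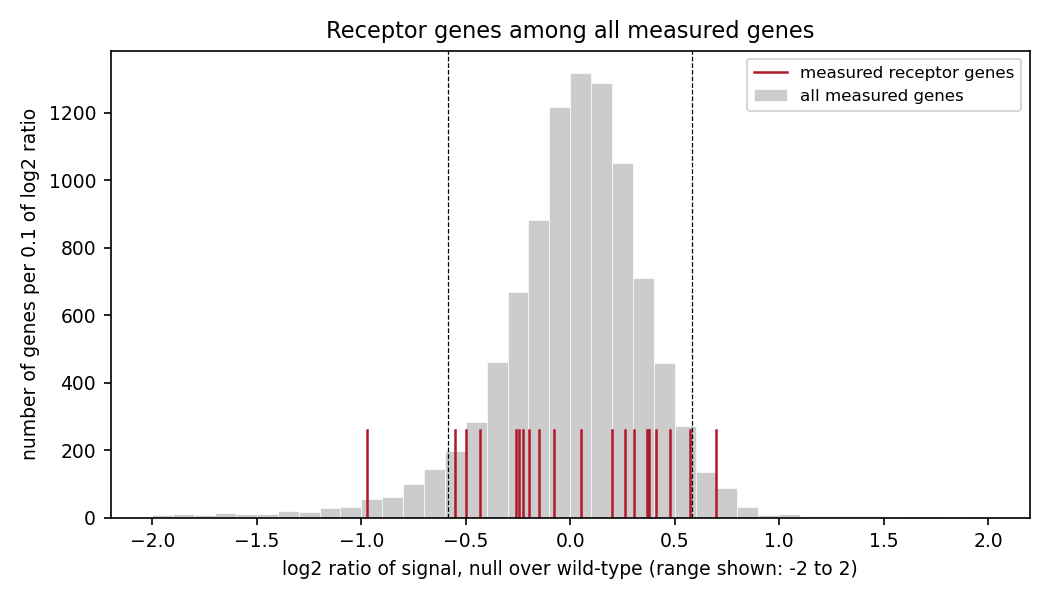
Number of measured genes per 0.1 of log2 ratio, null over wild-type (grey bars), with the 21 measured receptor genes as red lines and 1.5-fold dashed. The receptor genes run from -0.97 to 0.70, at the 2.58 and 98.2 percentiles of all measured genes.

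Probe sets give a technical error. Over the 9 receptor genes with 2 or more measured probe sets, the log2 ratios of probe sets of 1 gene differed with a pooled SD of 0.29, the same as the 0.29 over 3719 such genes on the whole array. In 5 of the 9 genes every measured probe set had the same sign, and in 59.3% of the 3719. Neither figure covers variation between mice. At the level of probe sets 6 of the 39 measured for receptors exceeded 1.5-fold upward and 1 downward, against 5.31% and 6.73% of all 15403 measured probe sets. The 6 belonged to Rora, Nr2f2, Nr3c1, Nr3c2 and Nr4a2, the last of which supplied 2.

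**Figure D3:**
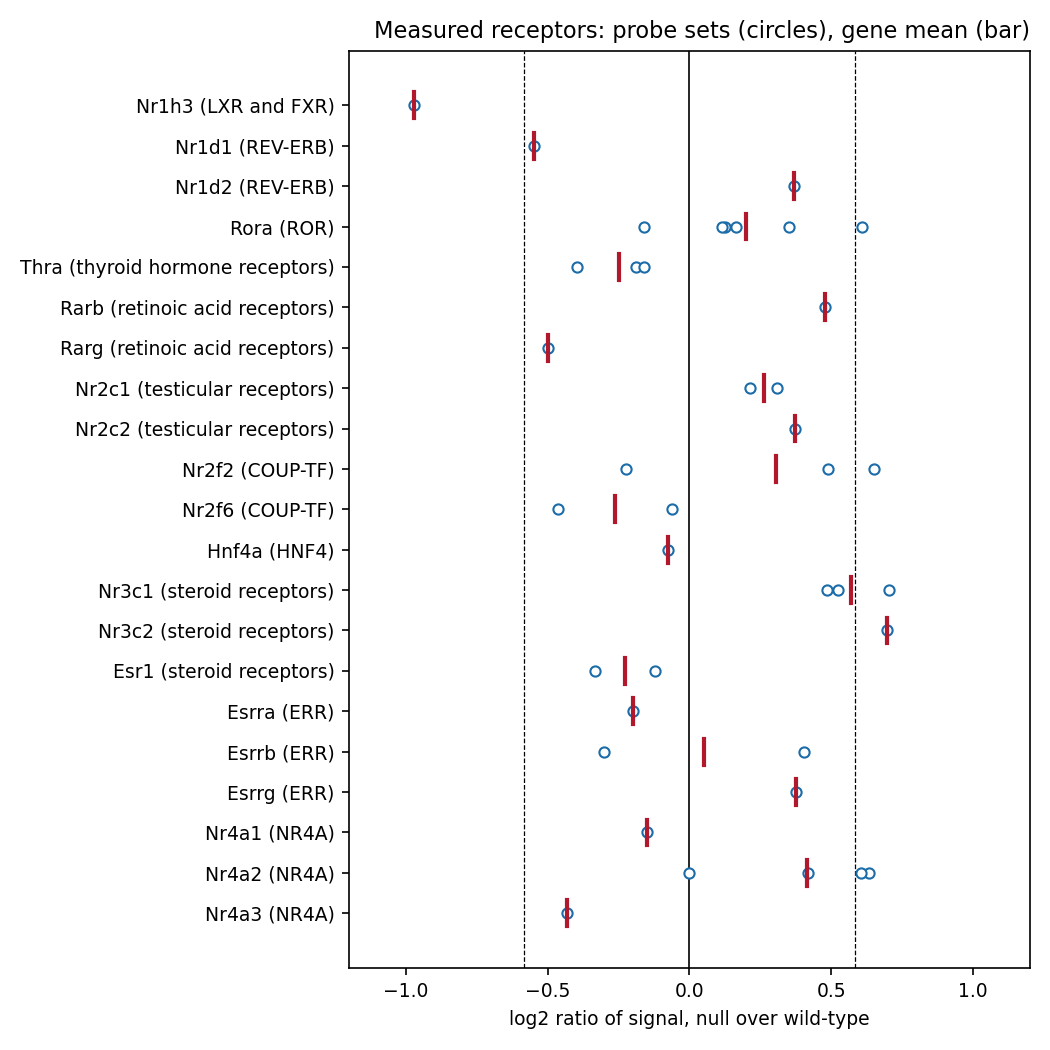
Log2 ratio of signal, null over wild-type, for each measured probe set (circles) of the 21 measured receptor genes and the mean of the gene (red bar), with 1.5-fold dashed and the family in brackets. Nr1h3 lies below and Nr3c2 above the dashed lines, and the probe sets of Rora, Nr2f2 and Esrrb stand on both sides of 0. Those of Nr4a2 do so by 1 probe set at -0.003.

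The steroid receptors of the adrenal hormones were the highest pair among the measured members. Nr3c1, the glucocorticoid receptor, was higher on the null-labelled array in each of its 3 measured probe sets. The first read 1099 in the wild-type-labelled and 1540 in the null-labelled pool, the second 1523 and 2479, and the third 2474 and 3561. Their log2 ratios averaged 0.57 ± 0.12 (SD of 3 probe sets), 1.49-fold, just under the 1.5-fold limit and at the 96.2 percentile of all measured genes. A further 3 probe sets of Nr3c1 were under the floor on at least 1 array, at 91.1 and 206.6, 198.9 and 171.2, and 50.8 and 21.5. Over all 6 probe sets the mean log2 ratio was 0.24. Nr3c2, the mineralocorticoid receptor, which also binds glucocorticoids, had 1 probe set at 317.6 and 514.9, 1.62-fold higher (log2 ratio 0.70). The value of Nr3c2 stood at the 98.2 percentile of all measured genes, and a single probe set gives it no technical error.

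Genes that glucocorticoids are known to act on did not share a direction. Of 23 genes listed for glucocorticoid supply and response, 21 were measured, 0 exceeded 1.5-fold upward and 3 downward, where 3.38% and 6.34% of all measured genes did, with a median log2 ratio of 0.00. Above 0 stood Fbxo32, a ubiquitin ligase of muscle atrophy, at 0.53 ± 0.31 (SD of 3 probe sets), Fkbp5, a receptor co-chaperone, at 0.52 ± 0.39 (SD of 2 probe sets) and Tsc22d3, a mediator of glucocorticoid effects, at 0.50 ± 0.26 (SD of 3 probe sets). Trim63, the other well-known atrophy ligase, was at 0.00, with 8523 and 8519. The 3 lower genes were Pck1 of gluconeogenesis at -4.54, Hsd11b1, the enzyme that regenerates active glucocorticoid, at -1.96, and the metallothionein Mt1 at -1.63. Fat and liver are known for Pck1 and Hsd11b1. Adipocyte and hepatocyte markers were lower on the same array, with the values given below for Nr1h3, and their part in these 3 values was not tested.

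Chaperones that hold steroid receptors in a ligand-binding state were mostly above 0. Of 14 measured chaperones and co-chaperones 12 were above 0, the median log2 ratio was 0.29, 2 were at least 1.5-fold higher and 0 lower. Over all measured genes 55.7% were above 0, 3.38% were past 1.5-fold upward and 6.34% downward. Both genes past 1.5-fold encode inducible HSP70, Hspa1b at 1.91 ± 0.36 (SD of 3 probe sets) and Hspa1a at 1.70. These are near-identical genes whose probe sets may share signal. Hsp90aa1, the inducible HSP90, had 0.39 ± 0.18 (SD of 3 probe sets), and Fkbp4, which ties HSP90 to steroid receptors, had 0.40.

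The estrogen and progesterone receptors gave a smaller and opposite value or none. Esr1, the estrogen receptor alpha, read 834.5 and 663 in 1 measured probe set and 1661 (wild-type-labelled) and 1528 in the other, a mean log2 ratio of -0.23 ± 0.15 (SD of 2 probe sets). The remaining probe set was under the floor at 64.5 and 59. All 3 probe sets of Pgr, the progesterone receptor, were under the floor on both arrays, with signals between 2.9 and 96.7.

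Nr1h3, the liver X receptor alpha, was the lowest of the measured receptors. This oxysterol receptor drives cholesterol export and fatty acid synthesis and is made mainly in liver, fat and macrophages. Its 1 probe set read 600.6 in the wild-type-labelled pool and 306.5 in the other, a 1.96-fold lower value (log2 ratio -0.97), at the 2.58 percentile of all measured genes. Nr1h4, the bile acid receptor, was under the floor on both arrays at 47.1 and 71.

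Genes known to be driven by liver X receptors included several with low values on the null-labelled array. Of 15 measured targets 8 passed 1.5-fold downward and 0 upward, where 6.34% and 3.38% of all measured genes did, while the median log2 ratio was -0.62 against 0.04 for all genes. The lowest were Apoc1, an apolipoprotein, at -4.36, Fasn, the fatty acid synthase, at -3.77, Scd1, a fatty acid desaturase, at -3.22 ± 1.91 (SD of 2 probe sets that differ widely), and Acaca, the acetyl-CoA carboxylase, at -3.03. Smaller differences were found for Apoe at -0.97, for Srebf1, the master regulator of lipogenesis, at -0.79, for Pltp, a phospholipid transfer protein, at -0.65 ± 0.05 (SD of 2 probe sets), and for Abca1, the cholesterol exporter, at -0.62. Mylip, a target that degrades the LDL receptor, stood above 0 at 0.44, and the sterol exporter Abcg1 at 0.17. In all, 4 of the 15 stood above 0, against 55.7% of all measured genes.

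Markers of fat and liver were lower on the same array as Nr1h3. In these bulk samples fewer cells of a type and less RNA per cell cannot be told apart. Of 14 adipocyte markers 10 were measured, each with a mean at least 1.5-fold lower, where 6.34% of all measured genes were. Their median log2 ratio was -3.06. The probe sets of Car3, a carbonic anhydrase that muscle also makes, differed widely, with a mean of -0.67 ± 0.82 (SD of 4 probe sets), and its brightest one was higher on the null-labelled array at 24357 and 26112. The brightest signals of the 11 markers with a probe set summed to 98136 in the wild-type-labelled and 41564 in the null-labelled pool, and that probe set of Car3 made up most of the lower sum. Adipoq, the hormone adiponectin, read 11443 and 1145, and Ucp1, the brown fat uncoupling protein, 14885 and 283. Of 16 hepatocyte markers with a probe set, 9 exceeded the floor in the wild-type-labelled pool alone and 0 in the null-labelled pool alone. Of all 18193 genes, 1003 exceeded it on 1 array only, whichever array. The signals of the 16 hepatocyte markers summed to 17965 and 3311. Albumin (Alb) read 2635 and 361. Macrophage markers, measured for 9 genes, had a median log2 ratio of -0.18 and summed signals of 8143 and 6933. Of the 9, 7 were below 0, against 4300 of all 9696 measured genes. Skeletal muscle markers, measured for 15 genes, had a median of 0.17, with creatine kinase (Ckm) at 16943 and 19880. Of the 15, 0 were past 1.5-fold, against 9.73% of all measured genes. None of the defining markers named here had a signal of 0. The part of fat, liver or macrophage RNA in the values of Nr1h3 and its targets was not tested.

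The REV-ERB pair pointed in opposite directions. Both are heme-binding repressors of the clock, and both oscillate over the day. Nr1d1, or REV-ERB alpha, read 1261 in the wild-type-labelled and 861 in the null-labelled pool, a 1.46-fold lower value (log2 ratio -0.55). Nr1d2, or REV-ERB beta, read 7148 and 9233 in its 1 measured probe set, 1.29-fold higher (log2 ratio 0.37). The other probe set of Nr1d2 read 95.9 and 185.4, over the floor in the null-labelled pool alone. The labels do not give the hour at which the muscle was taken.

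REV-ERB and ROR proteins compete for sites built around the half-site AGGTCA. This half-site, searched on both strands as AGGTCA or TGACCT, occurred in 14.0% of 32851 RefSeq windows of the 250 bases before a transcription start (GRCm38.p6). It occurred in 6 of the 47 windows of 31 receptor genes. Both REV-ERB windows are shown, a pair picked after its opposite values were seen. Each is printed 5′ to 3′ on its own strand with any half-site in capitals.
Nr1d1, minus strand, chr11:98775378-98775627: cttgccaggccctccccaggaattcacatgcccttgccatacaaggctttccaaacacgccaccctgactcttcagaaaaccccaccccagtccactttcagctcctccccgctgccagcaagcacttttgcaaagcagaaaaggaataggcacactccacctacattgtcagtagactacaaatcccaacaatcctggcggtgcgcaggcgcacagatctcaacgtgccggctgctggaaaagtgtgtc
Nr1d2, minus strand, chr14:18239107-18239356: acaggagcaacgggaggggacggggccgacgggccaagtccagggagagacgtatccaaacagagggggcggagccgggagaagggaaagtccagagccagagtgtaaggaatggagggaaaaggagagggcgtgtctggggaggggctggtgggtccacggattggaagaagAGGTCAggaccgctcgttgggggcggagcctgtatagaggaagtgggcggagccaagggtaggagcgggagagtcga
The Nr1d2 window held 1 half-site, from 77 to 72 bases before the start, and the Nr1d1 window held 0. A match is a string of letters and not a binding site, and the absence of these letters from this window says nothing about binding elsewhere. A relation of the half-site to the direction of either gene was not tested.

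Rora, the retinoid-related receptor that activates clock genes, had 6 measured probe sets among its 9. Its mean log2 ratio was 0.20 ± 0.26 (SD of 6 probe sets), with 5 probe sets above 0 and 1 below. The 2 extremes were a probe set at 1552 and 2369 (log2 ratio 0.61) and one at 1134 and 1014 (-0.16), so the spread between probe sets exceeded the mean. Rorb, a related receptor known from brain and retina, was under the floor in all 3 probe sets, with signals from 33.7 to 97.3.

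Clock genes regulated by these receptors had no common direction. Of 13 measured genes 8 were above 0, 1 exceeded 1.5-fold upward and 1 downward, and the median log2 ratio was 0.01. These counts are near those of all measured genes, of which 55.7% were above 0, 3.38% past 1.5-fold upward and 6.34% downward. Nfil3, a leucine zipper repressor, had 0.86, with 922 and 1669. Cry1, a clock repressor, had 0.57, with 643 and 951. Bhlhe40, another clock repressor, had -0.69, and Clock itself -0.29 ± 0.03 (SD of 3 probe sets). Arntl, the partner of Clock, exceeded the floor in the null-labelled pool alone, at 177.5 and 224.6.

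Thra, the thyroid hormone receptor alpha and the main form in muscle, was slightly lower in each of its 3 probe sets. They read 768 and 674, 1178 and 896, and 2382 and 2133, and the mean log2 ratio was -0.25 ± 0.13 (SD of 3 probe sets), 1.19-fold lower. The genes Thra and Nr1d1 overlap by 1075 bases in RefSeq, and both were lower on the null-labelled array. Which transcript each of their probe sets reads was not tested. Thrb, the thyroid hormone receptor beta, was under the floor at 165.2 and 136.6.

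Among 14 measured genes of thyroid hormone supply and response, 7 were above 0 and the median log2 ratio was -0.03. Past 1.5-fold, 1 was higher and 2 were lower. Of all measured genes 55.7% were above 0, 3.38% past 1.5-fold upward and 6.34% downward. Thrsp, a lipogenic gene induced by thyroid hormone, stood at -3.12 ± 0.28 (SD of 2 probe sets). Gpd2, the mitochondrial glycerol phosphate dehydrogenase, stood at -1.70 ± 1.19 (SD of 3 probe sets). Crym, which binds thyroid hormone in the cytosol, was higher at 0.81, with 254 and 445. Ucp3, the uncoupling protein of muscle, had 0.46 ± 0.45 (SD of 2 probe sets), and the fast calcium pump Atp2a1 had 0.20. Thrsp is abundant in fat, whose markers were lower on the same array, and their part in its value was not tested.

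Retinoic acid receptors differed in sign between the measured forms. Rarb, itself a classical target of retinoic acid, read 415 and 578 in its 1 probe set, 1.39-fold higher (log2 ratio 0.48). Rarg read 963 and 681 in its 1 measured probe set, 1.41-fold lower (log2 ratio -0.50), while its other probe set went the opposite way at 136.7 and 185.6, over the floor in the null-labelled pool alone. Over both probe sets of Rarg the mean log2 ratio was -0.03. Rara, the alpha form, was under the floor at 46.4 and 56.7.

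Of 15 genes with a probe set for retinoid supply and response, 6 were measured and 9 lay under the floor on both arrays. Of all 18193 genes, 9696 were measured and 7494 lay under the floor on both arrays. Rbp4, the retinol carrier secreted by liver and fat, was lower at -2.60, and Retsat, a retinol saturase, at -0.67 ± 0.15 (SD of 2 probe sets). Aldh1a1 and Aldh1a2, which make retinoic acid, were above 0 at 0.73 and 0.52. The median of the 6 was -0.26, and it moved to -0.01 with the floor at the 50th percentile. It moved to -0.05 without probe sets whose name ends in _s_at, _x_at or _a_at. The adipocyte and hepatocyte markers had medians of -3.06 and -2.11, the latter over 2 measured genes. These markers were lower on the same array as Rbp4, and their part in its value was not tested.

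The NR4A receptors are orphan receptors induced within minutes to hours by cAMP, calcium and exercise, and they were within 1.5-fold. Nr4a1, or NUR77, read 8914 in the wild-type-labelled and 8034 in the null-labelled pool, a log2 ratio of -0.15. Nr4a3, or NOR1, read 407 and 302 in its 1 measured probe set, a log2 ratio of -0.43, and its other 2 probe sets were under the floor, at 2.7 and 4.3 and at 118.2 and 135.8. Nr4a2, or NURR1, had 4 measured probe sets at 348 and 348, 220.2 and 294, 385 and 598, and 438 and 666. These gave log2 ratios of 0.00, 0.42, 0.63 and 0.60, with a mean of 0.41 ± 0.29 (SD of 4 probe sets). The first of them had no difference between the arrays, and the other 3 were higher on the null-labelled array.

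The cAMP response element, bound by CREB, has the core TGACG. This core, searched on both strands as TGACG or CGTCA, occurred in 17.8% of the 32851 windows of 250 bases and in 9 of the 47 receptor windows. It occurred 4 or more times in 45 of all windows, 0.137%, and the windows of Nr4a1, Nr4a2 and Nr4a3 were 3 of these 45. No other receptor window held 4. NR4A genes are known CREB targets, and the core was chosen after the values and windows had been seen. The cutoff of 4 equals the count in each NR4A window, so their place among the 45 is not a result. The core contains CG, and the windows of Nr4a1, Nr4a2 and Nr4a3 are 74.4%, 80% and 63.6% G or C. The share over all windows was not matched for this. The sequences, from RefSeq on GRCm38.p6, are printed 5′ to 3′ on the strand of each gene with the cores in capitals.
Nr4a1, plus strand, chr15:101266596-101266845: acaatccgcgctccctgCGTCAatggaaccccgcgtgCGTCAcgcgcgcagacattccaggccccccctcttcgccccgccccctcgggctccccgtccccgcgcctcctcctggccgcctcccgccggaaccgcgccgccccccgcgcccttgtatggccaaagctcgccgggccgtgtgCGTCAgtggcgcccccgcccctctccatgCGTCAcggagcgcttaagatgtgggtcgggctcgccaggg
Nr4a2, minus strand, chr2:57124004-57124253: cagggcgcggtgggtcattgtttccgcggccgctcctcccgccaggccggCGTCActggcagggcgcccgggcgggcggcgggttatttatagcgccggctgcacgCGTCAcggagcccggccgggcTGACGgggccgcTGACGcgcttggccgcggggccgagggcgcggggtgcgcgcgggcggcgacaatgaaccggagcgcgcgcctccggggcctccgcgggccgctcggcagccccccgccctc
Nr4a3, plus strand, chr4:48045055-48045304: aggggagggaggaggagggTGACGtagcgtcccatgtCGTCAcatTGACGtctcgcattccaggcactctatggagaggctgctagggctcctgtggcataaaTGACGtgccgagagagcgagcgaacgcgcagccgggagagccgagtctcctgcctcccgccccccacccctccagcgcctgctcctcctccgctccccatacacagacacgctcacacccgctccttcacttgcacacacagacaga
In Nr4a1 all 4 cores lie on the opposite strand, from 233 to 36 bases before the start. The cores of Nr4a2 lie 2 on each strand between 200 and 107 bases before the start, and those of Nr4a3 3 on the gene's strand and 1 opposite, between 231 and 143 bases before the start.

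Early response genes that are induced along with NR4A receptors were within 1.5-fold where measured, as 8753 of all 9696 genes were. Of 16 such genes 12 were measured. Above 0 were 7 and below it 5, where 55.7% of all measured genes were above 0. The median log2 ratio of the 12 was 0.14. The 4 furthest from 0 were Crem, a cAMP-responsive regulator, at 0.53 ± 0.03 (SD of 2 probe sets), Pde4b, a cAMP phosphodiesterase, at 0.50 ± 0.35 (SD of 3 probe sets), the kinase Sik1 at -0.35 and Ier3 at -0.34.

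The estrogen-related receptors, orphan receptors that work with PGC-1 coactivators on mitochondrial genes, were also within 1.5-fold. Esrra read 2208 and 1923 in its 1 measured probe set, a log2 ratio of -0.20. Esrrg, which is enriched in oxidative muscle, read 1164 and 1511 in its 1 measured probe set, a log2 ratio of 0.38, and its other 2 probe sets were under the floor, at 130.1 and 152.8 and at 70.7 and 103.2. Esrrb had measured probe sets of opposite sign, at 260.4 and 211.5 and at 375.5 and 496.9, and its mean of 0.05 ± 0.50 (SD of 2 probe sets) gives no direction.

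All 13 measured targets of these receptors were within 1.5-fold, as were 8753 of all 9696 measured genes, and 11 were above 0, against 55.7% of all genes. Their median log2 ratio was 0.12, near that of the skeletal muscle markers at 0.17, with 0.06 under quantile normalization and 0.01 under loess. Tfam, the mitochondrial transcription factor, had 0.37 ± 0.21 (SD of 2 probe sets), Perm1, a muscle regulator downstream of PGC-1 and ERR, 0.30, the adenine nucleotide carrier Slc25a4 0.27 ± 0.21 (SD of 4 probe sets), and Acadm, a dehydrogenase of fatty acid oxidation, -0.22.

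Orphan receptors of the NR2 group showed small differences. The testicular receptors Nr2c1 and Nr2c2, which bind direct repeats as repressors or activators, were both above 0. Nr2c1 read 296 and 343 in 1 measured probe set and 337 and 418 in the other, with a mean log2 ratio of 0.26 ± 0.07 (SD of 2 probe sets). Nr2c2 read 2784 and 3601 in its 1 measured probe set, a log2 ratio of 0.37, and 5 other probe sets were under the floor on both arrays.

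Among the COUP transcription factors, Nr2f2, known from vessels and mesenchyme, had measured probe sets on both sides of 0. These read 415 and 582, 624 and 535, and 281 and 440.1, with a mean log2 ratio of 0.30 ± 0.46 (SD of 3 probe sets). The other probe sets of Nr2f2 were under the floor on at least 1 array, at 88.7 and 193.6, 18.2 and 14.4, and 5.8 and 23.9. Over all 6 probe sets the mean log2 ratio was 0.62, while the brightest alone gave -0.22. Nr2f6 was lower in both of its probe sets, at 552 and 401 and at 812 and 779, with a mean of -0.26 ± 0.28 (SD of 2 probe sets). Endothelial markers, measured for 8 genes, had a median of 0.01, with 4 above 0 and 4 below, where 55.7% of all measured genes were above 0. Nr2f1 was under the floor at 60.6 and 103.3.

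Receptors known chiefly from liver, gut, kidney and gonad were mostly under the floor. Hnf4a, a constitutive activator of liver genes, had 1 measured probe set at 258.3 and 245, a log2 ratio of -0.08. Its other 3 probe sets were under the floor, at 30.1 and 8.1, 56.4 and 2.5, and 166.8 and 118.1. The xenobiotic receptors Nr1i2 and Nr1i3 had signals of 7.4 to 73.2 in 3 probe sets, and the vitamin D receptor Vdr 14.6 to 86.7 in 2. Nr5a2, a receptor of liver and pancreas, had 6.8 to 82.6 in 4 probe sets. Nr6a1, a germ cell factor, exceeded the floor in 1 of 5 probe sets and in the wild-type-labelled pool alone, at 196.4 and 171.2. Differences under the floor are not read as directions.

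Targets of the bile acid and xenobiotic receptors could not be compared on both arrays. Of 10 with a probe set 0 were measured on both arrays, and 3 exceeded the floor in the wild-type-labelled pool alone. Over all genes, 1003 of 18193 exceeded it on 1 array only, whichever array. Passing the floor on that array alone makes a gene lower by the filter, so the shared direction of the 3 is not a result. The cytochrome P450 gene Cyp2c29 was at least 12.6-fold lower and Cyp3a11 at least 6.91-fold lower, taking the floor as the level on the null-labelled array. Cyp2b10 read 336.4 and 179.1, the latter just under the floor, and got no bound. These are genes of hepatocytes, whose markers were lower on the same array, and the part of hepatocyte RNA in these values was not tested. The receptors Nr1i2 and Nr1i3 were not measured. Of 6 vitamin D genes with a probe set, Cyp27a1, a sterol hydroxylase, was the 1 measured, at 0.30.

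Of the cofactors shared by the receptors, 1 coactivator and 0 corepressors were past 1.5-fold, where 9.73% of all measured genes were. Of 20 measured coactivators 13 were above 0 with a median log2 ratio of 0.09, and of 13 measured corepressors 8 were above 0 with a median of 0.08, where 55.7% of all measured genes were above 0. Ppargc1b, a PGC-1 coactivator abundant in brown fat and oxidative tissue, was lower at -0.82, with 2301 and 1308. Ncoa2, a p160 coactivator, had 0.48 and Ncoa3 had -0.30 ± 0.37 (SD of 2 probe sets). Among corepressors the class II deacetylases Hdac5 and Hdac4 had 0.37 and 0.34, and Gps2, a subunit of the NCoR complex, had 0.36.

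The RXR partners differed little, with Rxra, Rxrb and Rxrg at 0.04, -0.03 and 0.00. Ppara stood at -1.27 ± 0.16 (SD of 3 probe sets), Ppard had -0.42, and Pparg, the adipocyte PPAR, exceeded the floor in the wild-type-labelled pool alone, at 983 and 56.7, at least 5.40-fold lower. The adipocyte, brown adipocyte and hepatocyte markers had medians of -3.06, -1.25 and -2.11 (the last over 2 measured genes), and their part in the PPAR values was not tested.

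**Figure D4:**
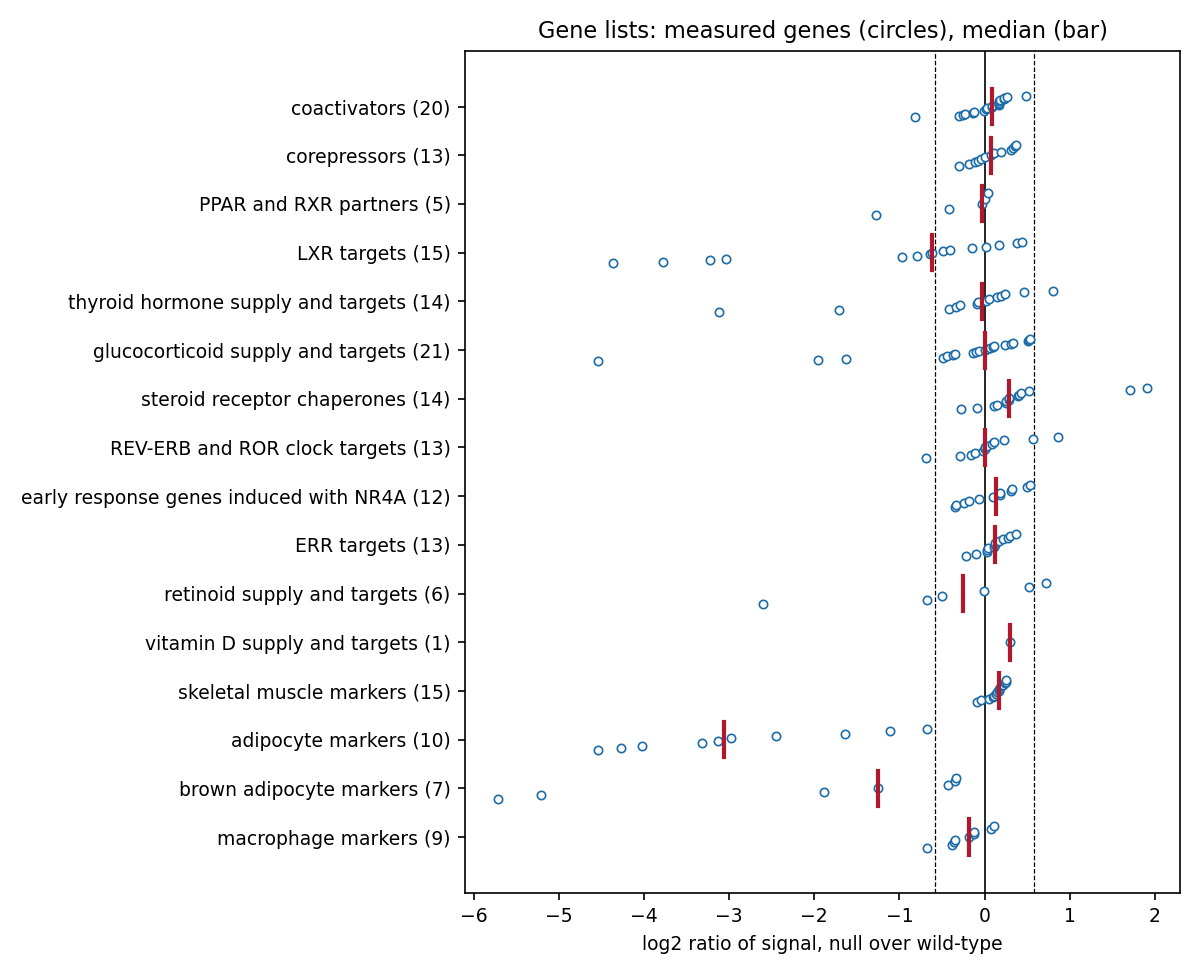
Log2 ratio of signal, null over wild-type, for the measured genes (circles) of lists of receptor cofactors, partners, targets and cell type markers, with the median of each list as a red bar, 1.5-fold dashed and the number of measured genes in brackets. The adipocyte markers have a median of -3.06, the liver X receptor targets -0.62, and the coactivators, corepressors and ERR targets stay near 0.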

How the data were processed

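The authors deposited 1 linear signal intensity for each probe set, computed with MAS5 per the submitters' processing notes. The MAS5 version and the genome build were not given in the sources used here. As found, both columns had a 2% trimmed mean of 500 and a median of 112, and 0 columns of other samples were present. Groups were taken from the source labels. Setting both arrays to the same trimmed mean left the values in effect unchanged.

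Excluding 64 control probe sets, probe sets with 1 gene symbol in the platform annotation were used (932 had several, 9160 were unnamed here). Matching on gene identifier found 34741 of the 34945 in RefSeq. The floor was the 60th percentile of all non-control signals, in place of detection calls. It was exceeded by 18004 probe sets on the wild-type and 18026 on the null array. Each gene was summarised by averaging the log2 ratios of those of its probe sets that passed the floor on both arrays. A gene above the floor on 1 array only got a bound where the brighter signal was 2 times the floor or more. For list genes with several probe sets, signals printed are those of the brightest measured one.

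Genes named are the 33 receptors, Kdm3a, as many as 4 genes per list, those furthest from a log2 ratio of 0, and Ckm, Acta1, Adipoq, Ucp1, Alb and S100a8. Other list members named (such as Apoe, Srebf1, Pltp, Abca1, Abcg1, Mylip, Hsp90aa1, Trim63, Fbxo32, Fkbp5, Tsc22d3, Atp2a1 and Arntl) were chosen after their values were seen. Members and lists were chosen with earlier results of these data known. The procedure was tested on simulated data, with changes put into genes well above the floor and larger than that of any measured receptor gene. That test does not cover differences as small, or signals as dim, as those of many receptors here. Python 3.11.15, pandas 2.3.3, numpy 2.4.6, statsmodels 0.14.6 and matplotlib 3.10.9 were used. Alternatives were quantile normalization, centring on the median, loess with a span of 0.3, values as deposited, and floors at the 50th and 75th percentile. Others were no filter, probe sets passing the floor on at least 1 array, and the brightest probe set. The last left out probe sets whose name ends in _s_at, _x_at or _a_at, called suffixed below.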

Additional observations from a re-analysis of the deposited data

How the results depend on the processing

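Of the 21 measured receptor genes, 15 kept 1 sign under each of the 10 alternatives that gave them a value and 6 changed sign under at least 1, none of these under a change of scaling. Rora, Nr2c1, Nr2c2 and Nr4a3 changed sign without a filter on low signals. Nr2f2 did so with the floor at the 75th percentile and from its brightest probe set, and Esrrb without suffixed probe sets. Of 199 gene values under alternatives, 184 moved by less than the pooled SD between probe sets and 15 by more. Part of the 184 could not move, since the values as deposited were in effect those used. A gene with 1 probe set also keeps its value, where measured, under each choice of floor, filter or probe set. The number of measured receptor genes was 13 with the floor at the 75th percentile and 32 without a filter. With the floor at the 75th percentile 0 genes were past 1.5-fold in either direction, since Nr1h3 and Nr3c2 then went unmeasured. Centring on the median and loess each gave 2 genes at least 1.5-fold lower, Nr1d1 joining Nr1h3. Without a filter 3 were lower and 6 higher, Pgr and Vdr among them with signals under the floor. The brightest probe set and the exclusion of suffixed probe sets each gave 2 genes higher, Nr4a2 joining Nr3c2. The exclusion gave 0 lower because the name of the 1 probe set of Nr1h3 ends in _a_at. The receptor median ranged from -0.15 to 0.19 and is not read as a direction. The medians of the clock, glucocorticoid and corepressor lists also changed sign under some alternatives, while the liver X receptor targets ranged from -0.71 to -0.49. No paired analysis was possible because each genotype has 1 array. The arrays carry no replicate, and signals near 182 limit the precision of the dimmer receptors.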

Other observations

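Some measured receptor genes lie near each other in the genome. On chromosome 14 the genes Nr1d2, Thrb and Rarb are near neighbours in RefSeq, with 0 protein-coding genes between Nr1d2 and Thrb and 0 between Thrb and Rarb. Nr1d2 and Rarb, the 2 measured there, were both above 0 at 0.37 and 0.48. On chromosome 11 the genes Thra and Nr1d1 overlap and were both below 0 at -0.25 and -0.55, while Rara, 5 protein-coding genes away, was under the floor. These pairs were noticed after the values were seen, and no test was made of them.

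Markers of 2 further cell types differed between the arrays and belong to no comparison of the receptors. Of 8 neutrophil markers with a probe set, 7 exceeded the floor in the null-labelled pool alone. On 1 array only, whichever array, 1003 of all 18193 genes exceeded it. Passing the floor on the null-labelled array alone sets the direction of each of the 7 by the filter. Ngp, the 1 neutrophil marker measured on both arrays, was higher at 2.63. S100a8, a subunit of calprotectin, was at least 12.9-fold higher. Of 6 measured Schwann cell markers 3 were at least 1.5-fold higher and 1 lower, where 3.38% and 6.34% of all measured genes were. Among the 3 were the myelin genes Ncmap at 1.49 and Mal at 0.88 ± 0.34 (SD of 2 probe sets). The lower one was S100b at -2.46.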
